A study of Homo sapiens with 2 samples.

Results

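The PARP family genes PARP1, PARP2, PARP3, PARP4, PARP6, PARP8, PARP10, PARP14 and TNKS, together with PARG, which removes the polymer that some of them make, were examined in an ovarian cancer cell line with acquired resistance to a PARP inhibitor. These 10 genes were chosen by name, and all rows with their gene names were taken: 45 of 47892 listed transcripts, and 10 of 16978 genes. The resistant cells, labelled SKOV3_OR, had been kept in olaparib below its IC50 for at least 3 months, and the comparison was with SKOV3 cells that received no treatment. Both are the human ovarian cancer line SKOV3 with the genotype labelled WT, so the 2 groups share everything the labels give except the drug exposure. Each group had 1 library of total RNA depleted of ribosomal RNA. The sources used here do not say whether the resistant cells were a clone or a pool.

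PARP enzymes transfer ADP-ribose from NAD onto proteins and nucleic acids. PARP1 and PARP2, the main targets of olaparib, bind broken DNA and build chains of poly(ADP-ribose), or PAR, that recruit repair proteins, and the tankyrase TNKS also makes such chains. Most other family members, such as PARP6, PARP8, PARP10 and PARP14, attach single ADP-ribose units, and PARG cuts PAR chains down. Loss of PARG and changes in PARP1 are known routes to PARP inhibitor resistance in other cell models.

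The rows that carry these genes were not annotated as coding mRNAs. Of the 45 transcripts, 44 were found in GENCODE release 29, all with the same GRCh38 start and end, and 22 of them were annotated as retained-intron transcripts and 22 as processed transcripts without an open reading frame. The exception was PARG-OT1, an assembled transcript with no Ensembl identifier. None was annotated as protein-coding, although each of the 10 genes has coding transcripts in the annotation, so the values below do not stand for the amounts of the coding mRNAs or proteins. In bulk RNA, a smaller share of cells and less RNA per cell cannot be told apart.

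The introns that some of these transcripts keep are illustrated with 3 short ones, from PARP2 and PARP3. Each sequence was read from the GENCODE release 29 transcript (GRCh38) and runs 5′ to 3′ on the gene's plus strand. Capitals mark the whole kept intron, numbered from the 5′ end of the principal coding transcript, and lower case marks 10 bases of exon on either side. PARP2-207, higher in SKOV3_OR, keeps intron 14 (246 bases, chr14:20357140-20357405 as shown), and PARP2-209, lower in SKOV3_OR, keeps intron 12 (155 bases, chr14:20356425-20356599). PARP3-204, lower in SKOV3_OR, keeps intron 4 (199 bases, chr3:51944569-51944787).
PARP2-207: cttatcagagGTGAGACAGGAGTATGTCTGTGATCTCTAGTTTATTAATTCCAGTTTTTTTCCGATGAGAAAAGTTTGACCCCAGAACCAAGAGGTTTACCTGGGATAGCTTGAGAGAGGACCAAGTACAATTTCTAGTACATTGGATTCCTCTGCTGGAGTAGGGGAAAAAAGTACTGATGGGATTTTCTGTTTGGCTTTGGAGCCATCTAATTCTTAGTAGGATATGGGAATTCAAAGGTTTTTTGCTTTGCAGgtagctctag
PARP2-209: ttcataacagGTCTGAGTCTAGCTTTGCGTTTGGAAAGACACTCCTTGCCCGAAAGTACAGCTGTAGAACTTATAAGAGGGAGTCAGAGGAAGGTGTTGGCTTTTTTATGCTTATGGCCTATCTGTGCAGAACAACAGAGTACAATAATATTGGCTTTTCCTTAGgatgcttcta
PARP3-204: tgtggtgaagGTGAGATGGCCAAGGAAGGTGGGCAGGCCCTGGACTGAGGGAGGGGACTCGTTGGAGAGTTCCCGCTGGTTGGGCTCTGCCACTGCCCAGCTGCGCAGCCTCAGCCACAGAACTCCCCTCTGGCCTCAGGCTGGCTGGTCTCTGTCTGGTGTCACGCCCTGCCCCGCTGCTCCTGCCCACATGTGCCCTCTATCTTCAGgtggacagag
All 3 kept introns begin with GT and end with AG. The G+C content was 40.2% in intron 14 of PARP2, 42.6% in intron 12 of PARP2 and 65.3% in intron 4 of PARP3.

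PARP6-217 and PARP8-214 end inside an intron after running past its 5′ splice site. Their boundaries are shown because both were at least 2-fold higher in SKOV3_OR and belong to the genes with the highest log2 ratios as computed below. Lower case marks 20 bases of exon, and capitals mark the first 30 bases of the intron. PARP6-217 reads 117 bases into the 6545-base intron 20 (minus strand, chr15:72249215-72249264 as shown), and PARP8-214 reads 1392 bases into the 82025-base intron 3 (plus strand, chr5:50668106-50668155). PARP8-217, lower in SKOV3_OR, crosses the same intron 3 boundary and ends 3 bases beyond it.
PARP6-217: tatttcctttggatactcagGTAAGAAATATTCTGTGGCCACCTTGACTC
PARP8-214: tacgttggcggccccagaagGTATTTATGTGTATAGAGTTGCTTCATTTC

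Expression was taken as the value listed by the authors for each transcript and library, in a unit the file header does not name. Sequencing depth is not given, and no counting interval can be attached to a value. Values of all transcripts of a gene were summed, and a gene's log2 ratio was computed as log2(SKOV3_OR + 1) minus log2(SKOV3 + 1), which understates differences of low genes. With 1 library per group there was no test and no replicate check, and every difference describes these 2 libraries only. Summed over all transcripts in the table, the values came to 47632 in SKOV3_OR and 46879 in SKOV3. Of 7 epithelial or ovarian carcinoma markers, 6 had rows, which summed to 401.6 in SKOV3_OR and 248.7 in SKOV3, mostly from KRT8 (318 in SKOV3_OR and 166 in SKOV3), whereas EPCAM was near 0 in both (0.00143 in SKOV3_OR and 0.0412 in SKOV3). KRT18, at 5.83 in SKOV3_OR and 14.3 in SKOV3 (log2 ratio −1.16), was the only 1 of the 4 such markers with a mean of at least 1 that was past 2-fold, and their median log2 ratio was −0.085. Of 11 markers of immune, endothelial and fibroblast cells, only COL1A1 and PDGFRB had rows, and the values of these 2 genes together came to 0.212 in SKOV3_OR and 0.273 in SKOV3. In 4 of 5 COL1A1 rows and 2 of 3 PDGFRB rows a value above 0 stood beside a count of 0, as described below. The transcript types of the markers were not examined, and a gene without a row may still be expressed. Other cell types were therefore not excluded.

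PARP6 and PARP8, which encode mono-ADP-ribosyltransferases, were higher in the resistant library, whereas the DNA repair enzymes PARP1, PARP2 and PARP3 differed little. PARP6 had a summed value of 8.91 in SKOV3_OR and 3.64 in SKOV3 (log2 ratio 1.09). PARP8 had 2.91 in SKOV3_OR and 1.23 in SKOV3 (log2 ratio 0.81). Without the added 1, the ratio of TNKS (2.96) exceeded those of PARP6 (2.45) and PARP8 (2.37), at TNKS sums below 1 in both libraries. The 10 genes together summed to 22.5 in SKOV3_OR and 15.9 in SKOV3, and without PARP6 and PARP8 the sums were 10.7 in SKOV3_OR and 11.05 in SKOV3.

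Of the 10 genes, 6 reached a mean value of 1 over both libraries (PARP1, PARP2, PARP3, PARP6, PARP8 and PARP10), and PARP4, PARP14, PARG and TNKS lay below it. Among those 6, PARP6 was at least 2-fold higher by the log2 ratio, and no gene was at least 2-fold lower. PARP8, at a ratio of 2.37 without a pseudocount, fell below that threshold with the pseudocount of 1. Over all 5767 genes with a mean of at least 1, 8.50% were 2-fold or more higher in SKOV3_OR, and 4.37% were lower by that measure, and with only 6 genes a single call is no sign that the set stands apart. The median log2 ratio of the 6 genes was 0.05, against 0.16 for all genes with such a mean, and 93.2% of those genes had a lower log2 ratio than PARP6. Dividing the SKOV3_OR values by the median ratio of all genes took the PARP6 ratio to 0.89, below the 2-fold threshold.

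**Figure D1:**
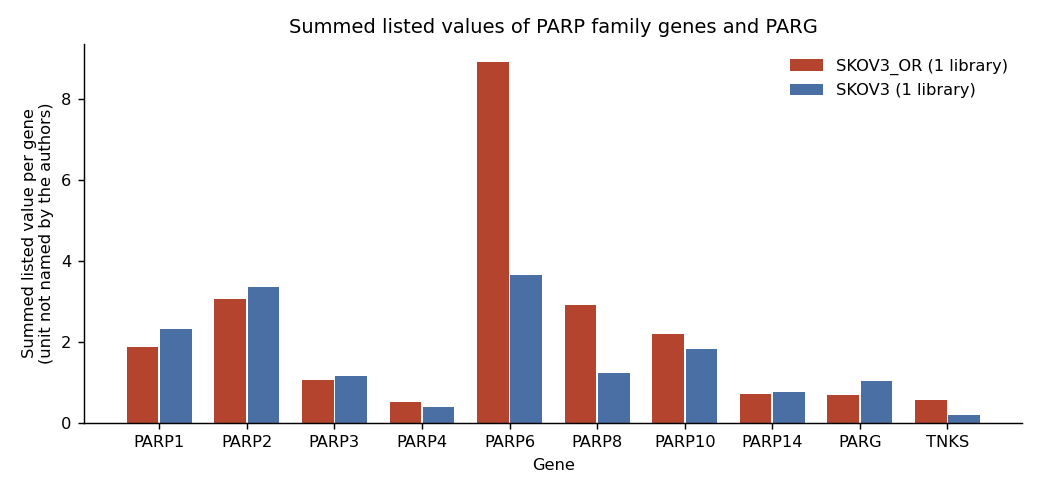
Summed listed value of each gene in SKOV3_OR (red, left) and SKOV3 (blue, right), 1 library each, so there are no error bars. PARP6 (8.91 and 3.64) and PARP8 (2.91 and 1.23) have visibly taller SKOV3_OR bars, and the bars of PARP1, PARP2 and PARP3 are close in height.

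At the level of transcripts, differences in both directions lay within the same gene. Of the 45 transcripts, 25 had a higher listed value in SKOV3_OR and 20 a lower one. The log2 fold changes in the authors' deposited table typically lie 0.285 below the log2 ratios of the values, and by them 21 transcripts were above 0 and 24 below, so the direction of the majority depends on the scaling. The 4 that changed sign were PARP1-205, PARP4-203, PARP10-207 and PARP14-205. The 37 with a mean of at least 0.1 were compared as log2(value + 0.1), and 11 of them were higher in SKOV3_OR by 2-fold or more and 5 were lower by as much. Those shares, 29.7% and 13.5%, stand beside 23.0% and 13.7% of all 31796 transcripts with such a mean. By annotated type, 9 of 21 retained-intron transcripts of these genes (42.9%) were past 2-fold in the higher direction and 1 (4.76%) in the lower one. Among all retained-intron transcripts the shares were 22.7% higher and 10.4% lower. Of 15 processed transcripts, 2 were past 2-fold in the higher direction and 4 in the lower one (13.3% and 26.7%), against 24.2% and 16.7% of all processed transcripts. Transcripts of a gene overlap and share reads, so they are not independent observations.

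**Figure D2:**
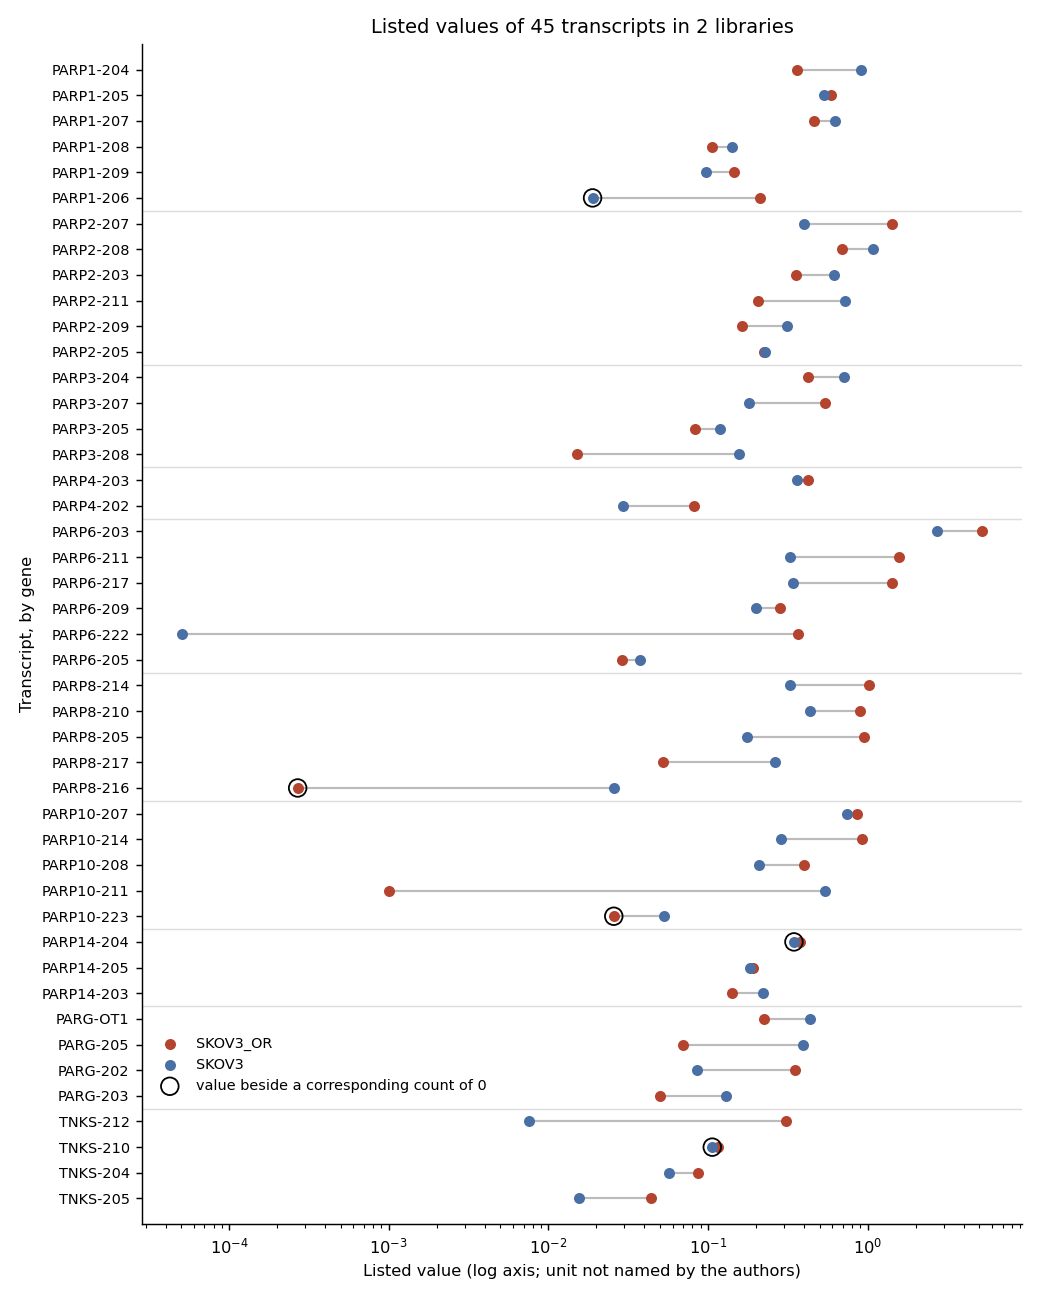
Listed values of the 45 transcripts on a log axis, grouped by gene, in SKOV3_OR (red) and SKOV3 (blue), with a grey line joining the 2 libraries. Black rings mark 5 values above 0 that stand beside a count of 0 in the deposited fold change, among them those of PARP14-204 and TNKS-210, where the 2 points nearly coincide.

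PARP1 (ENSG00000143799, chromosome 1, 226360691 to 226408079, minus strand) is the enzyme that olaparib mainly inhibits and traps on DNA. Its 6 listed transcripts summed to 1.88 in SKOV3_OR and 2.32 in SKOV3 (log2 ratio −0.21). PARP1-204 was lower in SKOV3_OR, at 0.359, against 0.909 in SKOV3. PARP1-206 was higher, at 0.213 in SKOV3_OR and 0.0189 in SKOV3. These 2 were the PARP1 transcripts past 2-fold, and they ran in opposite directions. PARP1-205 had 0.591 in SKOV3_OR and 0.534 in SKOV3, and PARP1-207, which keeps the 1427-base intron 17, had 0.463 in SKOV3_OR and 0.622 in SKOV3. PARP1-208 and PARP1-209 had values between 0.0971 and 0.146 in both libraries. Except for PARP1-206, which lies between 32.3% and 40.9% of the way along the gene, the PARP1 transcripts all begin 78.0% or more of the way along it.

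PARP2 (ENSG00000129484, chromosome 14, 20343582 to 20357905, plus strand), the second DNA-dependent PAR polymerase, had nearly equal sums of 3.06 in SKOV3_OR and 3.36 in SKOV3 (log2 ratio −0.11). The sum hid a shift between transcripts. PARP2-207, the transcript with the intron 14 sequence shown above, had 1.42 in SKOV3_OR and 0.400 in SKOV3 (log2 ratio 1.60). It made up 46.4% of the PARP2 value in SKOV3_OR and 11.9% in SKOV3. Each of the other 5 transcripts was lower in SKOV3_OR. PARP2-211, a processed transcript, had 0.205 in SKOV3_OR and 0.718 in SKOV3 (log2 ratio −1.43). PARP2-208 had 0.689 in SKOV3_OR and 1.08 in SKOV3, PARP2-203 had 0.358 and 0.618, and PARP2-209, with intron 12, had 0.163 and 0.313. PARP2-205 was level, at 0.225 in SKOV3_OR and 0.229 in SKOV3. With PARP2-207 alone, the transcript of largest mean, the log2 ratio of the gene turned to 0.79.

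PARP3 (ENSG00000041880, chromosome 3, 51942345 to 51948867, plus strand), a DNA-break-responsive enzyme that mostly attaches single ADP-ribose units, showed the same kind of exchange at a level sum. The sum was 1.06 in SKOV3_OR and 1.17 in SKOV3 (log2 ratio −0.07). PARP3-207 had 0.542 in SKOV3_OR and 0.182 in SKOV3 (log2 ratio 1.19), and PARP3-204, with intron 4, had 0.422 in SKOV3_OR and 0.711 in SKOV3 (log2 ratio −0.64). PARP3-207 accordingly took 51.1% of the PARP3 value in SKOV3_OR and 15.6% in SKOV3. PARP3-205 was at 0.0826 in SKOV3_OR and 0.118 in SKOV3, and PARP3-208 at 0.0150 in SKOV3_OR and 0.157 in SKOV3.

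PARG (ENSG00000227345, chromosome 10, 49818279 to 49970203, minus strand) encodes the main glycohydrolase that degrades PAR. Its sum lay below the mean of 1, at 0.697 in SKOV3_OR and 1.04 in SKOV3 (log2 ratio −0.27). Its 4 transcripts did not move together. The retained-intron transcript PARG-202, near the 3′ end of the gene, had 0.353 in SKOV3_OR and 0.0854 in SKOV3 (log2 ratio 1.29). PARG-205, a processed transcript of 11 exons, had 0.0700 in SKOV3_OR and 0.394 in SKOV3 (log2 ratio −1.54). PARG-OT1 was lower in SKOV3_OR as well, at 0.225 against 0.433 in SKOV3, as was PARG-203, at 0.0497 against 0.129. PARG-OT1, whose locus runs to 49973167, beyond the annotated PARG gene, made up 32.2% of the PARG value in SKOV3_OR and 41.5% in SKOV3. The share of PARG-202 was 50.6% of the PARG value in SKOV3_OR and 8.20% in SKOV3, and that of PARG-205 was 10.04% in SKOV3_OR and 37.9% in SKOV3. PARGP1, a PARG pseudogene, had 2 rows summing to 0.629 in SKOV3_OR and 0.413 in SKOV3. Reads of the 2 genes may have been exchanged in counting, which was not tested, so PARG values are uncertain.

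**Figure D3:**
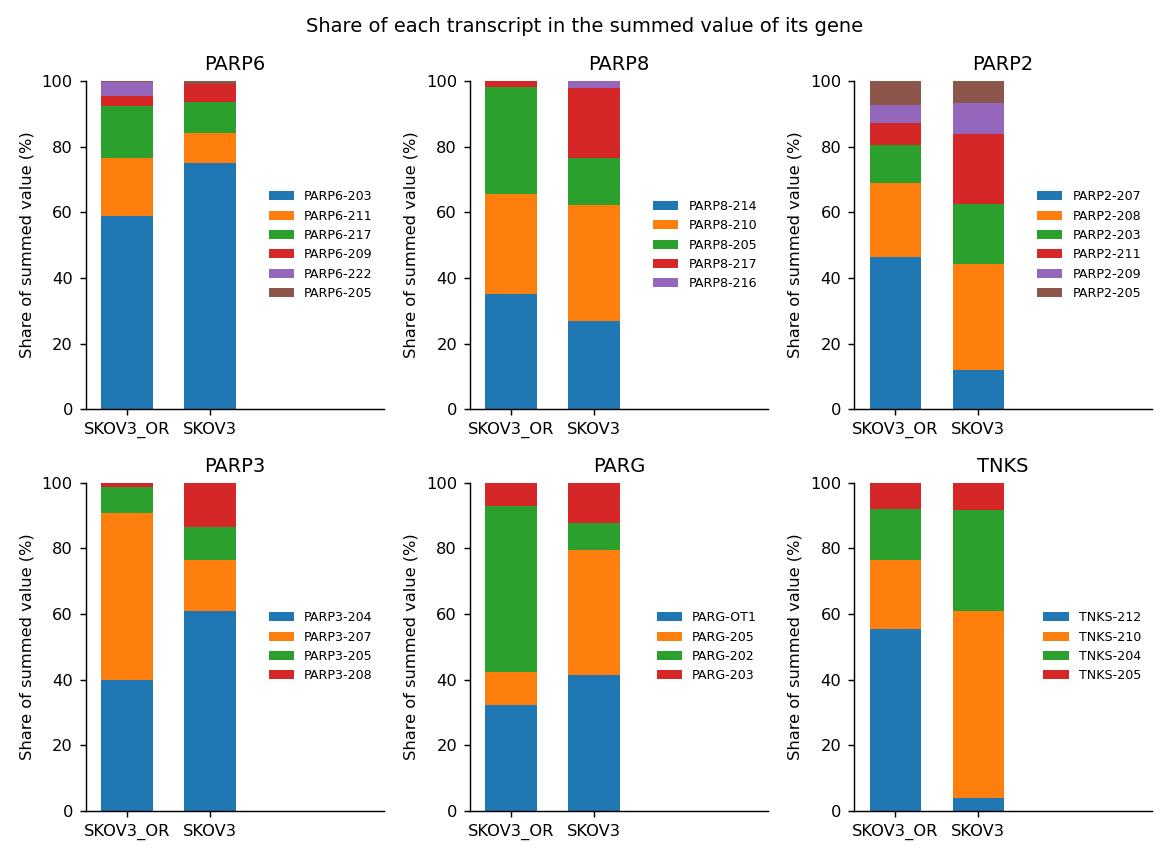
Share of each transcript in the summed value of its gene, in percent, in SKOV3_OR (left bar) and SKOV3 (right bar). PARP2-207 takes 46.4% in SKOV3_OR and 11.9% in SKOV3, PARP3-207 takes 51.1% and 15.6%, PARG-202 takes 50.6% and 8.20%, and TNKS-212 takes 55.6% and 4.05%.

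PARP6 (ENSG00000137817, chromosome 15, 72241181 to 72272999, minus strand) had the highest log2 ratio of the 10 genes. Of its 6 transcripts, 5 were higher in SKOV3_OR. The processed transcript PARP6-203, with 19 exons, carried most of the value, at 5.24 in SKOV3_OR and 2.74 in SKOV3. The larger ratios lay in retained-intron transcripts toward the 3′ end. PARP6-211 had 1.58 in SKOV3_OR and 0.329 in SKOV3 (log2 ratio 1.97), and PARP6-217, whose intron 20 boundary is shown above, had 1.41 in SKOV3_OR and 0.340 in SKOV3 (log2 ratio 1.78). PARP6-222 had 0.367 in SKOV3_OR and 5.1e-05 in SKOV3 (log2 ratio 2.22), a ratio that depends on the pseudocount, since its SKOV3 value is near 0. All 3 begin 70.9% or more of the way along the gene. PARP6-209 was at 0.283 in SKOV3_OR and 0.1997 in SKOV3, and PARP6-205, at 0.0287 in SKOV3_OR and 0.0373 in SKOV3, was the only one lower in SKOV3_OR. The share of PARP6-203 in the gene was 58.8% in SKOV3_OR and 75.1% in SKOV3. Exons of PARP6-203 overlap those of AC009690.3, a gene annotated on the same strand, by up to 175 bases.

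PARP8 (ENSG00000151883, chromosome 5, 50665899 to 50846522, plus strand), another mono-ADP-ribosyltransferase, had 3 transcripts higher and 2 lower in SKOV3_OR. PARP8-205, a processed transcript of 23 exons that spans most of the gene, had 0.947 in SKOV3_OR and 0.176 in SKOV3 (log2 ratio 1.92). PARP8-214, whose intron 3 boundary is shown above, had 1.02 in SKOV3_OR and 0.328 in SKOV3 (log2 ratio 1.39). PARP8-210 was at 0.894 in SKOV3_OR and 0.436 in SKOV3. These 3 transcripts made up nearly all of the PARP8 value in SKOV3_OR. PARP8-217, which overlaps PARP8-214 at the 5′ end of the gene, went the other way, at 0.0520 in SKOV3_OR and 0.262 in SKOV3 (log2 ratio −1.25). PARP8-216 had small listed values, at 0.000269 in SKOV3_OR and 0.0256 in SKOV3. Its locus is 176444 bases long, and the SKOV3 value corresponds to 310 counts by the product described below.

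PARP14 (ENSG00000173193, chromosome 3, 122680618 to 122730840, plus strand), an interferon-responsive mono-ADP-ribosyltransferase, lay below the mean of 1 with sums of 0.709 in SKOV3_OR and 0.750 in SKOV3 (log2 ratio −0.03). PARP14-203, a retained-intron transcript of 10 exons, had 0.142 in SKOV3_OR and 0.222 in SKOV3. PARP14-205 was level at 0.191 in SKOV3_OR and 0.183 in SKOV3, and so was PARP14-204 by its listed values, at 0.375 in SKOV3_OR and 0.346 in SKOV3. PARP4 (ENSG00000102699, chromosome 13, 24420926 to 24512810, minus strand), the PARP of the vault particle, had the lowest number of transcripts, with a sum of 0.508 in SKOV3_OR and 0.390 in SKOV3 (log2 ratio 0.12). PARP4-203 made up most of it, at 0.426 in SKOV3_OR and 0.360 in SKOV3, and PARP4-202 was at 0.0815 in SKOV3_OR and 0.0294 in SKOV3. Neither gene had a transcript past 2-fold among those with a mean of at least 0.1.

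PARP10 (ENSG00000178685, chromosome 8, 143977153 to 144012772, minus strand), a mono-ADP-ribosyltransferase, had sums of 2.20 in SKOV3_OR and 1.83 in SKOV3 (log2 ratio 0.18). A pair of its retained-intron transcripts differed in opposite directions. PARP10-214, which ends 166 bases into the 196-base intron 6, had 0.925 in SKOV3_OR and 0.287 in SKOV3 (log2 ratio 1.41). PARP10-211, which keeps the 79-base intron 1, had 0.00101 in SKOV3_OR and 0.541 in SKOV3 (log2 ratio −2.67), the lowest log2 ratio among the 37 transcripts compared. That ratio depends on the pseudocount, since the SKOV3_OR value is near 0. PARP10-207, which keeps introns 5 and 6, was level at 0.853 in SKOV3_OR and 0.739 in SKOV3. PARP10-208 had 0.397 in SKOV3_OR and 0.208 in SKOV3, and PARP10-223 had 0.0257 in SKOV3_OR and 0.0531 in SKOV3.

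TNKS (ENSG00000173273, chromosome 8, 9555914 to 9782346, plus strand), the tankyrase that acts on telomere and WNT pathway proteins, was below the mean of 1, with sums of 0.553 in SKOV3_OR and 0.187 in SKOV3 (log2 ratio 0.39). All 4 TNKS transcripts were higher in SKOV3_OR. TNKS-212, which ends 356 bases into intron 5, had 0.307 in SKOV3_OR and 0.00758 in SKOV3 (log2 ratio 1.92) and carried most of the difference. TNKS-210 had 0.116 in SKOV3_OR and 0.106 in SKOV3, TNKS-204 had 0.0863 and 0.0574, and TNKS-205 had 0.0437 and 0.0156. The pseudocount of 1 is large beside these values, and with a pseudocount of 0.1 the log2 ratio of TNKS was 1.19.

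The log2 fold changes and adjusted p-values that the authors deposited for each transcript compare 2 libraries and not the conditions. In the authors' deposited table, 13 of the 45 transcripts had an adjusted p under 0.05 with a positive fold change and 8 with a negative one (28.9% and 17.8%), against 23.6% and 22.3% of all 47892 transcripts. The 5 transcripts described below with a listed value above 0 beside a count of 0 are all among those called. In the authors' deposited table the log2 fold change was 1.54 for PARP2-207 (adjusted p = 0.00466), 1.98 for PARP6-211 (adjusted p = 4.85e-05) and 2.14 for PARP8-205 (adjusted p = 2.46e-06). PARG-205 had −2.77 in the authors' deposited table (adjusted p = 2.66e-09) and PARP1-204 had −1.62 (adjusted p = 0.00175). PARP3-207, past 2-fold by its values, had 1.24 in the authors' deposited table with an adjusted p of 0.0710, so the exchange within PARP3 was not called there. TNKS-212 had 4.97 (adjusted p = 4.71e-14) and PARP6-222 had 7.37 (adjusted p = 2.31e-18) in the authors' deposited table, on SKOV3 counts of 6 and 1. PARP10-211 had −4.13 (adjusted p = 0.000522) and PARP2-211 had −2.06 (adjusted p = 0.000867) in the authors' deposited table. The PARP10-211 fold change rests on counts of 1 in SKOV3_OR and 23 in SKOV3. PARP6-203, the largest PARP6 transcript, had 0.65 in the authors' deposited table, with an adjusted p of 0.190.

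The listed values and the deposited fold changes were then set against each other. Whole counts were divided by a constant, 0.114 in SKOV3_OR and 0.136 in SKOV3, and 1 was added to each result. Every fold change could be written as the SKOV3_OR number over the SKOV3 number. For 42 of the 45 transcripts a single pair of counts in the range searched did so. Where neither count was 0 (37 transcripts), pairs were searched only near 1 product for each library. It was the listed value times the length of the locus with its introns, up to a constant of the library. Closeness of the counts to it was therefore partly fixed in advance. The counts equalled that product rounded up in both libraries in 26 transcripts, and the largest difference was 5 counts. PARG-205, where the difference was largest, corresponds to counts of 281 in SKOV3_OR and 2288 in SKOV3 over a locus of 84676 bases, of which 1242 are exonic. Whether these counts are reads cannot be read from the table, and the deposited p-values rest on them. The counts of PARP6-203, PARP8-205 and PARP8-210 could not be fixed to 1 pair.

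In 5 transcripts (11.1%, against 22.3% of all transcripts) a listed value above 0 stood beside a count of 0. PARP14-204 had a listed SKOV3 value of 0.346, which by its length corresponds to 61.3 counts, whereas the log2 fold change of 8.66 in the authors' deposited table needs 46 in SKOV3_OR and 0 in SKOV3. TNKS-210 had a listed SKOV3 value that corresponds to 76.8 counts, and its log2 fold change of 8.99 in the authors' deposited table needs 58 in SKOV3_OR and 0 in SKOV3. For these 2 transcripts the values describe level expression and the fold changes do not. PARP1-206, at a log2 fold change of 8.53 in the authors' deposited table, corresponds to 42 counts in SKOV3_OR and 0 in SKOV3 (5.32 by its value). PARP8-216 (−11.16 in the authors' deposited table) corresponds to 0 in SKOV3_OR (2.25 by its value) and 310 in SKOV3, and PARP10-223 (−6.70 there) to 0 in SKOV3_OR (4.42 by its value) and 14 in SKOV3. With the values at a count of 0 set to 0, the log2 ratio of PARP14 turned to 0.28 and that of TNKS was 0.52, and those of PARP1, PARP8 and PARP10 stayed within 0.1 of the first values. The SKOV3_OR values of PARP8-216 and PARP10-223 are also written with more than 6 decimals, unlike the other 43.

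**Figure D4:**
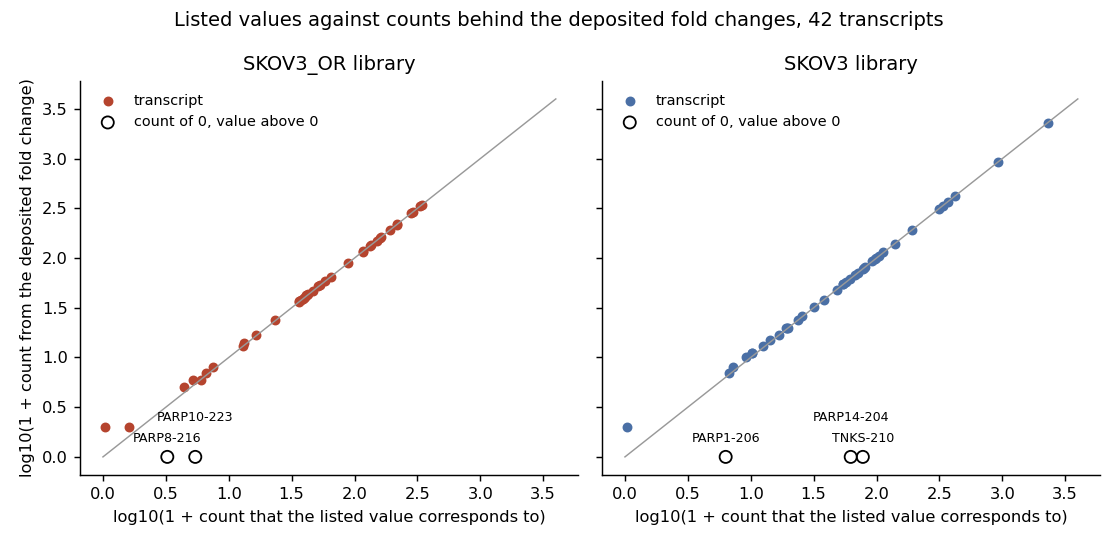
Counts from the deposited fold changes (vertical, log10 of 1 + count) against the counts to which the listed values correspond (horizontal, same scale) for 42 transcripts in SKOV3_OR (left) and SKOV3 (right). The grey line marks equality, and most points lie on it, partly because pairs without a count of 0 were searched only near it. The 5 ringed transcripts lie at a count of 0 although their listed values correspond to between 2.25 and 76.8 counts.

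Other genes of ADP-ribosylation and NAD metabolism were read from 4 lists. The annotated types of their transcripts were not examined. Their values therefore cannot be taken as amounts of coding mRNAs or enzymes. Among those given with values below, MACROH2A1 had 2 transcripts with a listed value above 0 beside a count of 0. NAMPT, APEX1, ZNF451 and MACROD1 had 1 each, and the others had none. Among 8 other PARP family members, 3 had rows and only PARP12, an interferon-responsive mono-ADP-ribosyltransferase, reached a mean of 1, at 14.3 in SKOV3_OR and 10.6 in SKOV3 (log2 ratio 0.41). Among 10 other ADP-ribose hydrolases, 6 had rows and 2 reached a mean of 1, neither past 2-fold by the log2 ratio with its pseudocount of 1. NUDT5, which hydrolyses free ADP-ribose, had 5.53 in SKOV3_OR and 2.38 in SKOV3 (log2 ratio 0.95), and MACROD1, a mono-ADP-ribosylhydrolase, had 3.82 in SKOV3_OR and 6.28 in SKOV3 (log2 ratio −0.60).

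A list of 17 genes, grouped as cofactors and readers of ADP-ribose, also held repair enzymes such as APEX1 and POLB. Of the 17, 16 had rows and 9 reached a mean of 1, with 1 past 2-fold in the higher direction and none in the lower one. The shares over all genes with such a mean were 8.50% and 4.37%, and the median log2 ratio was 0.19 for the list against 0.16 for all genes. The histone variant gene MACROH2A1, listed as H2AFY, one splice form of which binds ADP-ribose, had 19.7 in SKOV3_OR and 7.60 in SKOV3 (log2 ratio 1.26). APEX1, the abasic-site endonuclease, had 2.53 in SKOV3_OR and 4.90 in SKOV3 (log2 ratio −0.74). ZNF451, a SUMO ligase, had 8.88 in SKOV3_OR and 5.08 in SKOV3 (log2 ratio 0.70), and the ubiquitin ligase RNF114 had 9.85 in SKOV3_OR and 5.83 in SKOV3 (log2 ratio 0.67). HPF1, the factor that directs PARP1 and PARP2 to serine residues, was below a mean of 1, at 0.518 in SKOV3_OR and 0.271 in SKOV3.

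Genes of NAD synthesis and use, NAD being the substrate of the PARP enzymes, had the widest range of log2 ratios of the 4 lists. Of 10 genes of NAD synthesis and use, 8 had rows and 5 reached a mean of 1. By the log2 ratio with its pseudocount of 1, 1 was past 2-fold in each direction. The shares of all genes with such a mean were 8.50% in the higher direction and 4.37% in the lower one, and 1 of 5 is no sign that the list stands apart. NAMPT, which makes NAD from nicotinamide, had 17.6 in SKOV3_OR and 5.08 in SKOV3 (log2 ratio 1.61), and all 7 of its transcripts were higher in SKOV3_OR. NAPRT, which makes NAD from nicotinic acid, had 8.84 in SKOV3_OR and 19.9 in SKOV3 (log2 ratio −1.09), and all 7 of its transcripts were lower in SKOV3_OR. SIRT1, an NAD-dependent deacetylase, had 0.870 in SKOV3_OR and 1.94 in SKOV3 (log2 ratio −0.65), and the NAD kinase NADK had 33.4 in SKOV3_OR and 29.2 in SKOV3 (log2 ratio 0.19).

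**Figure D5:**
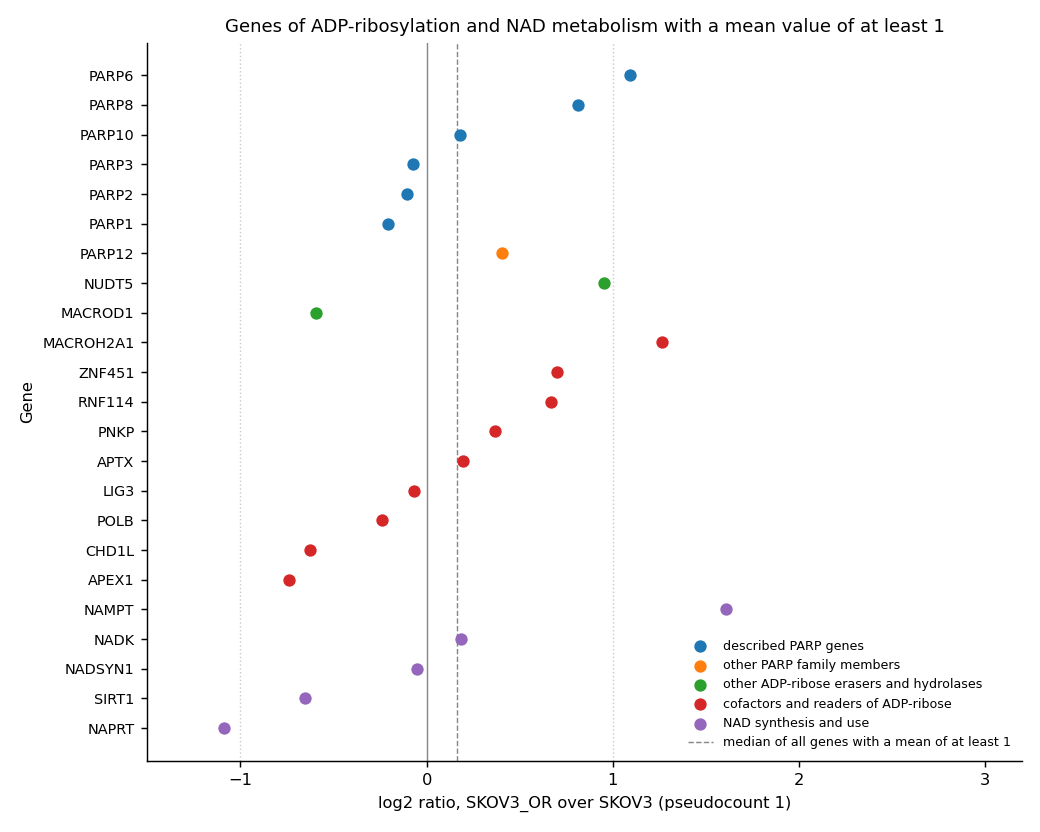
log2 ratio (SKOV3_OR over SKOV3, pseudocount 1) of the genes with a mean value of at least 1, 1 point a gene, coloured by list, with dotted lines at 2-fold and a dashed line at the median of all genes (0.16). NAMPT (1.61), MACROH2A1 (1.26) and PARP6 (1.09) lie beyond the upper dotted line and NAPRT (−1.09) beyond the lower one.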

How the data were processed

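Total RNA of 2 SKOV3 cultures was analysed, 1 library in each group, grouped by the sample titles. HISAT2 and StringTie are named in the submitters' processing notes, without versions. The notes also give mm10, a mouse build, but the deposited identifiers and loci are human and match GENCODE release 29 on GRCh38. The deposited expression values are a normalized signal per transcript whose unit no header states. The deposited log2 fold changes and p-values, per the file headers, are the authors' own, and which test gave them is not given in the sources.

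Values were summed by gene name. A pseudocount of 1 and a minimum mean of 1 were used for genes, and 0.1 for both with transcripts. Genes and transcripts were counted at 2-fold, and no test was made. Transcript types, exons and sequences came from GENCODE release 29. Sequences of 3 kept introns and 2 intron boundaries are printed, and others are not reported here. Introns were numbered on the coding transcript tagged principal with the longest coding sequence. Recovery of the constants, the counts of 0 and the pairs of counts was run on simulated data. Pairs were searched there around the true counts, so that part was no test of the search from listed values. Each of the 10 genes is named, with its transcript of largest mean, those past 2-fold, and those over 4-fold in the authors' table. For the 4 other gene lists, up to 4 genes with the largest absolute log2 ratio at a mean of at least 1 are named, and HPF1 was added after its values were seen. The genes and lists were chosen with earlier results of these data known. Strand use in counting is not given in the labels. Python 3.11.15, numpy 2.4.6, pandas 2.3.3 and matplotlib 3.10.9 were used.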

Additional observations from a re-analysis of the deposited data

How the results depend on the processing

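The number of genes past 2-fold, 1 (PARP6), was 2 with a pseudocount of 0.1, when PARP8 joined at 1.18, and 0 with a pseudocount of 5, after division by the median ratio of all genes, or with the transcript of largest mean alone. It was 1 with no filter, with values at a count of 0 set to 0, and with those transcripts left out, a setting chosen after seeing the data. The median log2 ratio turned to −0.079 after that division and was 0.74 with the transcript of largest mean alone, where only PARP6 passed the filter. The number of transcripts past 2-fold, 16, was between 15 and 17 elsewhere and 0 with a pseudocount of 1, which exceeds most of these values. Of 70 gene ratios under alternatives, 25 moved by over 0.1 and 3 had another sign. The 3 were PARP2 with the transcript of largest mean (0.79), and PARP14 in that setting (0.03) and with values at a count of 0 set to 0 (0.28). Another pseudocount cannot change the sign of a ratio, and leaving out the filter changes no ratio. Many of the 70 signs were therefore fixed in advance. The ratio of PARP6 ranged between 0.69 and 1.27 and stayed above 0. No paired analysis was possible because each group has 1 library. Depth is unknown, so the counting error of low values was not estimated.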

Other observations

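The deposited workbook has a second list of 20 transcripts, none of them from the genes described here. In 8 of these 20 the listed value of at least 1 library differed from that in the full table by more than 1e-05, while all 20 fold changes were identical. In the full table, 5217 SKOV3_OR values and 5 SKOV3 values were written in plain notation with more than 6 decimals, and 5205 of the SKOV3_OR ones stood where the fold change needs a SKOV3_OR count of 0. The PARP8-216 and PARP10-223 values given above are among them.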
